A study of Homo sapiens with 12 samples.

Results

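The butyrophilin genes BTN2A1, BTN2A2, BTN3A1, BTN3A2 and BTN3A3 were followed across 12 RNA-seq samples of A375, an established human melanoma cell line grown as a culture. They were taken by symbol, and all 5 were among the 4918 genes of the table used here. Cells were left untreated (the control group; the treatment protocol also mentions a vehicle), or received SB-3CT, IFNγ, or SB-3CT with IFNγ for 24 h, with 3 samples per group. SB-3CT is a small-molecule inhibitor of the gelatinases MMP2 and MMP9, and IFNγ is the cytokine that the study used to induce PD-L1. Whether the 3 samples of a group were separate cultures was not stated, so the p-values measure the spread between these samples, which may be technical.

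Butyrophilins are membrane proteins with immunoglobulin-like outer domains that resemble those of the B7 co-stimulatory family, to which PD-L1 belongs. BTN3A1 (part of the CD277 group) binds phosphoantigens, small metabolites of isoprenoid synthesis, through its intracellular B30.2 domain, and together with BTN2A1 makes a cell visible to Vγ9Vδ2 T cells. BTN3A2 lacks the B30.2 domain, BTN3A3 carries one that does not bind phosphoantigen in the same way, and BTN2A2 is known as a co-inhibitory molecule for T cells.

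The 5 genes lie within one cluster on the plus strand of chromosome 6, given here on hg19 from GENCODE. In order along the chromosome, they are BTN3A2 (26365387 to 26378548), BTN2A2 (26383324 to 26395102), BTN3A1 (26402465 to 26415436), BTN3A3 (26440700 to 26453643) and BTN2A1 (26458132 to 26476849). The transcribed pseudogene BTN2A3P lies between BTN3A1 and BTN3A3, and BTN1A1 follows BTN2A1. The BTN3A genes are close paralogs. Of all stretches of 150 bases (the read length) in the canonical transcript, 3.03% in BTN3A1, 2.51% in BTN3A2 and 1.95% in BTN3A3 also occurred in a transcript of another gene of the cluster, and 0% in BTN2A1 and BTN2A2. The assignment of such reads among the BTN3A genes is uncertain.

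Windows around the start site, 250 bases before to 50 after, were matched in RefSeq (GRCh38.p14) for 3 of the 5 genes, BTN2A1, BTN3A2 and BTN3A3. BTN2A2 and BTN3A1 were not matched. The sequences are shown because they let the promoter of BTN2A1, the member with the smallest difference with IFNγ, be read beside those of BTN3A2 and BTN3A3. BTN3A2 has another start site whose window held none of the motifs searched. Capitals mark 3 sets of letters, searched on both strands: the stretch CCCAGCAACTGNTGAGAAA, CCAAT, and AANNGAAA, the core that interferon regulatory factors recognise. The first is the longest run of letters that the 3 windows share when 1 position may differ (N), and is 19 bases long. The plus strand is written 5′ to 3′, for chr6:26457705-26458004 (BTN2A1), chr6:26364948-26365247 (BTN3A2) and chr6:26440254-26440553 (BTN3A3).
BTN2A1: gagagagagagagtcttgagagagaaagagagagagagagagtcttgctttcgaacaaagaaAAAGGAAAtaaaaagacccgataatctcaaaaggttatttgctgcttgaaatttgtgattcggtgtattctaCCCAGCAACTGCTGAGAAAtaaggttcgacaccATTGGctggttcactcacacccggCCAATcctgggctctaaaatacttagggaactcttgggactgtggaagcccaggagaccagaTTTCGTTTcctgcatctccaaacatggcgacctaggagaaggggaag
BTN3A2: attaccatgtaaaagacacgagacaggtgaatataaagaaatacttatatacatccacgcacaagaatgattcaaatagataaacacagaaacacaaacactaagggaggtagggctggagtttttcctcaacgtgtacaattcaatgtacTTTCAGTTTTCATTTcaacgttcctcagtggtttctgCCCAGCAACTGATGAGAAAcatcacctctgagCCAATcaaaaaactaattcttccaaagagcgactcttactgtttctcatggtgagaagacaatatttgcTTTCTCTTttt
BTN3A3: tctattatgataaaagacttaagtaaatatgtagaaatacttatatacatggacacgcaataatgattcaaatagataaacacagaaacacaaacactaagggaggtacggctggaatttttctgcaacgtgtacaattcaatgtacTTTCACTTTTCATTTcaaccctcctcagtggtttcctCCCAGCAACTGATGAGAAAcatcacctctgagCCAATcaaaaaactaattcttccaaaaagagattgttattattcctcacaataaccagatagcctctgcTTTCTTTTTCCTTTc
The shared stretch starts at -116 from the start site in BTN2A1, at -62 in BTN3A2 and at -66 in BTN3A3. Since it was taken from these windows, its presence in them is not a finding. Of the 34943 windows available, 3 (0.00859%) held it, so among them it occurred in none outside these 3. A run chosen for its length seldom recurs elsewhere, so this count is not a finding either. BTN2A2 and BTN3A1 had no window and were not searched. It contains AGCAAC, letters of the X box of MHC class II promoters, which 12.8% of all windows held. Each window also held CCAAT downstream of the stretch (34.6% of all windows, either strand). CCAAT was on the plus strand in BTN3A2 (at -30) and BTN3A3 (at -34). In BTN2A1 it was on the minus strand at -83 and on the plus strand at -59. Its orientation was not matched to the Y box of those promoters. AANNGAAA, held by 22.9% of all windows, occurred before the start site as an overlapping pair on the minus strand in BTN3A2 (at -99 and -92) and BTN3A3 (at -103 and -96). In BTN2A1 it occurred before the start site once, at -188. After the start site it occurred in all 3 windows, at 3 in BTN2A1, 39 in BTN3A2, and 35 and 41 in BTN3A3. How often an overlapping pair occurs over all windows was not counted. Whether these matches relate to the differences with IFNγ was not tested. The letters of the IFNγ-activated site, TTCNNNGAA, were in none of the 3 windows (7.66% of all windows). Aligned end to end, the windows of BTN3A2 and BTN3A3 were 82.3% identical, and that of BTN2A1 was 43.6% identical to BTN3A2 and 47.8% to BTN3A3. A match is a run of letters and does not show that a factor binds.

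Expression was calculated by the authors as FPKM, a fragment count scaled by transcript length and sequencing depth, and deposited as log2(FPKM + 1). Levels are given here as FPKM, which is per length, so genes can be compared. Differences between groups are those of log2(FPKM + 1), and this scale makes the change of a low gene smaller than it is in FPKM. Groups were compared with limma on the 3 + 3 samples, and a gene was called where its p-value, adjusted by Benjamini-Hochberg over all 4918 genes, was under 0.05. In RNA from whole cultures, fewer expressing cells and less RNA per cell cannot be told apart. The number of reads per sample is unknown. Steps in the lowest values place the depths between 87.0% and 149.9% of the mean control. The epithelial marker EPCAM, the T cell gene CD3D and the monocyte gene CD14 had group means of at most 0.137 FPKM. AXL and CAV1, genes of undifferentiated melanoma lines, had group means of at least 41.2 and 47.5 FPKM, and the pigment gene DCT had at most 0.278 FPKM.

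Without IFNγ, the BTN2A genes were the most abundant members. BTN2A1 stood at 6.06, 5.64 and 6.30 FPKM in the control samples and BTN2A2 at 5.97, 5.14 and 4.78 FPKM, and these ranges overlapped. BTN3A2 followed at 3.45, 4.05 and 3.95 FPKM, below every BTN2A2 value. BTN3A3 (1.80, 1.82 and 2.23 FPKM) and BTN3A1 (1.36, 1.91 and 1.80 FPKM) were lowest, with overlapping ranges. The same order, with the same overlaps, was found with SB-3CT alone. In the control group the mean level of BTN2A1 exceeded that of 59.2% of the genes in the table, and that of BTN3A1 exceeded 40.0%.

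IFNγ raised 4 of the 5 genes, and the BTN3A genes had the highest differences. Over all genes, 8.46% were called higher with IFNγ than in control cells and 11.0% lower.
BTN3A3 reached 11.5, 9.35 and 11.1 FPKM with IFNγ. Its mean of 10.6 ± 1.14 FPKM (SD, n = 3) was 5.46 times the control mean of 1.95 ± 0.243 FPKM (SD, n = 3), a log2 difference of 1.98 (standard error 0.10, adjusted p = 8.19e-05 from limma). By p-value it ranked 50 among the 4918 genes.
BTN3A2, the B30.2-less member, reached 15.9, 12.5 and 14.8 FPKM. This was 3.78 times its control mean, and the log2 difference was 1.67 (standard error 0.10, adjusted p = 0.000164 from limma).
BTN3A1, the phosphoantigen-binding member, reached 7.84, 5.92 and 7.29 FPKM, 4.16 times its control mean, with a log2 difference of 1.57 (standard error 0.13, adjusted p = 0.000618 from limma).
BTN2A2 reached 12.9, 11.6 and 11.4 FPKM, 2.26 times its control mean, with a log2 difference of 1.04 (standard error 0.09, adjusted p = 0.000826 from limma). In each of these 4 genes every IFNγ sample lay above every control sample.
BTN2A1, the partner of BTN3A1 in T cell recognition, had 9.00, 7.09 and 6.79 FPKM with IFNγ. Its 3 values also lay above the control samples, but its log2 difference of 0.29 (95% interval 0.03 to 0.55, adjusted p = 0.112 from limma) did not pass the threshold. It passed after scaling each sample by its median ratio (0.33, adjusted p = 0.0414) and among genes with a mean of at least 1 FPKM (adjusted p = 0.0427). Groups without overlap were found in 36.9% of all genes, and the exact two-sided permutation test gave each of the 5 genes p = 0.1, the lowest value that 3 samples against 3 allow.

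**Figure D1:**
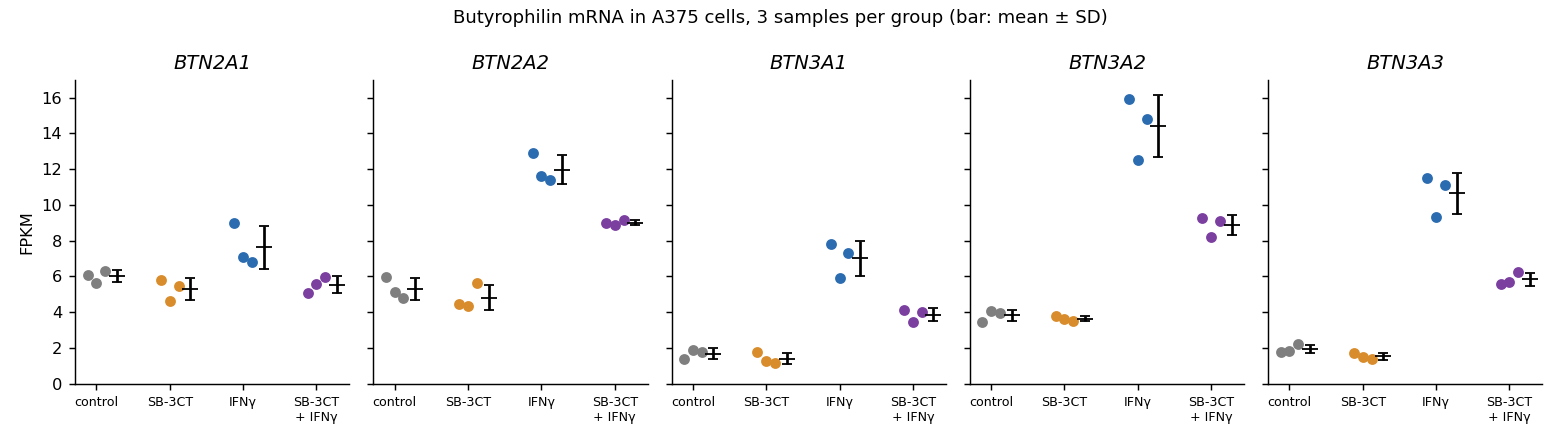
FPKM of each gene in each sample (points), by group, with the mean and SD of the 3 samples (bars); the y axis is linear and starts at 0. In the 4 genes other than BTN2A1 the IFNγ samples sit above all others, and the SB-3CT + IFNγ samples sit between them and the samples without IFNγ.

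With IFNγ the order of levels changed. BTN3A2 had the highest mean (14.4 ± 1.74 FPKM, SD, n = 3), followed by BTN2A2 and BTN3A3, and neighbours in this order overlapped. BTN2A1 (7.63 ± 1.20 FPKM, SD, n = 3) lay below every BTN3A3 value and overlapped with BTN3A1 (7.02 ± 0.986 FPKM, SD, n = 3). The summed FPKM of the 5 genes was 18.6, 18.6 and 19.1 in control samples and 57.2, 46.5 and 51.4 with IFNγ, 2.76 times as high in the mean. With SB-3CT and IFNγ it was 33.0, 31.8 and 34.5, between those groups and without overlap with either.

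The same comparison among SB-3CT-treated cells, which shares no sample with the first, called the same 4 genes higher. The share of all genes called higher was 7.85%, and 32.7% were called lower.
BTN3A3 went from 1.73, 1.47 and 1.38 FPKM with SB-3CT to 5.56, 5.70 and 6.25 FPKM with SB-3CT and IFNγ, a log2 difference of 1.44 (standard error 0.08, adjusted p = 0.000173 from limma). BTN3A2 went from 3.77, 3.61 and 3.52 FPKM to 9.25, 8.23 and 9.11 FPKM (log2 difference 1.09, adjusted p = 0.000179 from limma). BTN3A1 went from 1.76, 1.27 and 1.17 FPKM to 4.13, 3.43 and 4.02 FPKM (log2 difference 1.02, adjusted p = 0.00158 from limma). In all 3 BTN3A genes the groups did not overlap, which was so in 51.7% of all genes.
BTN2A2 went from 4.48, 4.34 and 5.63 FPKM to 9.00, 8.85 and 9.13 FPKM (log2 difference 0.79, adjusted p = 0.00169 from limma), again without overlap. BTN2A1 was at 5.81, 4.64 and 5.44 FPKM with SB-3CT and at 5.07, 5.57 and 5.99 FPKM with both agents. These ranges overlapped, and the log2 difference was 0.06 (95% interval -0.17 to 0.29, adjusted p = 0.674 from limma). It was 0.26 (adjusted p = 0.049) after quantile normalization.

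SB-3CT alone gave no called difference in the family, while 5.37% of all genes were called higher and 6.87% lower. On the deposited scale the log2 differences ran from -0.05 for BTN3A2 (95% interval -0.24 to 0.14; 0.04 after quantile normalization) to -0.22 for BTN3A3 (95% interval -0.44 to 0), with adjusted p-values from 0.162 to 0.712 in limma. BTN3A3 had the lowest unadjusted p-value, 0.0478, and was the only member whose groups did not overlap, as in 33.9% of all genes. For BTN2A1, BTN2A2 and BTN3A1 the differences were -0.16 (95% interval -0.37 to 0.05), -0.12 (-0.38 to 0.15) and -0.17 (-0.45 to 0.12). The lowest bound among the 5 intervals was -0.45, in BTN3A1. The summed FPKM of the 5 genes was 17.5, 15.3 and 17.1 with SB-3CT, below all 3 control samples.

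**Figure D2:**
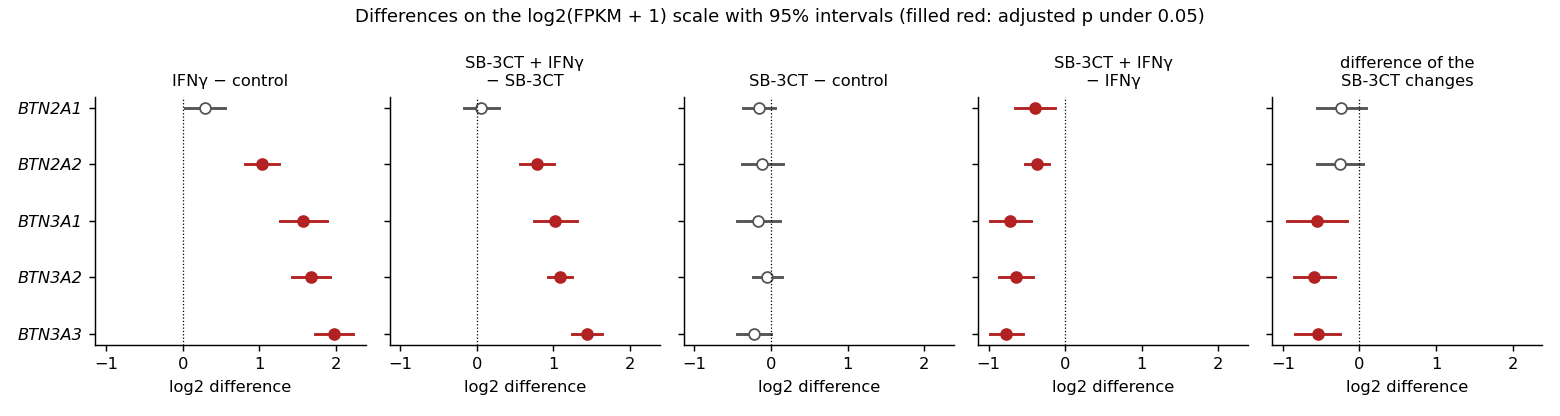
Differences on the log2(FPKM + 1) scale (x axis) with 95% intervals for each gene in the 4 comparisons and for the SB-3CT change with IFNγ minus that without; filled red points have an adjusted p-value under 0.05 in limma. Both IFNγ comparisons show 4 filled genes to the right of 0, SB-3CT alone shows none, and SB-3CT added to IFNγ shows all 5 to the left of 0.

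When SB-3CT was added to IFNγ, all 5 genes were called lower than with IFNγ alone, by 38.6% to 45.2% of the mean FPKM in the BTN3A genes and by 24.8% and 27.4% in the BTN2A genes. On the deposited scale 31.5% of all genes were called lower and 6.41% higher, so a lower value was common. After scaling by the median ratio the split over all genes was 15.5% higher and 16.5% lower, and after quantile normalization 11.0% and 14.5%. In both, 3 of the 5 members, the BTN3A genes, were called lower.
BTN3A3 had 5.56, 5.70 and 6.25 FPKM with both agents against 11.5, 9.35 and 11.1 FPKM with IFNγ. Its mean was 45.2% lower, with a log2 difference of -0.77 (standard error 0.09, adjusted p = 0.00211 from limma). After median-ratio scaling the difference was -0.56 (adjusted p = 0.00342).
BTN3A1 had 4.13, 3.43 and 4.02 FPKM, 45.0% below the mean with IFNγ alone. The log2 difference was -0.72 (standard error 0.11, adjusted p = 0.00357 from limma) on the deposited scale, and -0.52 (adjusted p = 0.00776) after median-ratio scaling.
BTN3A2 had a mean of 8.86 ± 0.550 FPKM (SD, n = 3), or 38.6% lower, with a log2 difference of -0.64 (standard error 0.10, adjusted p = 0.00305 from limma). It was -0.42 (adjusted p = 0.00693) after median-ratio scaling.
BTN2A2 and BTN2A1 had smaller differences, which depended on the scaling. BTN2A2 (9.00, 8.85 and 9.13 FPKM) was 24.8% lower, with a log2 difference of -0.37 on the deposited scale (standard error 0.07, adjusted p = 0.00554 from limma) but of -0.15 (adjusted p = 0.0644) after median-ratio scaling. BTN2A1 (5.07, 5.57 and 5.99 FPKM) was 27.4% lower. Its log2 difference was -0.39 on the deposited scale (standard error 0.11, adjusted p = 0.0294 from limma) and -0.19 after median-ratio scaling (adjusted p = 0.197). The call of BTN2A1 was also lost in 5 of the 6 fits without 1 sample, where its adjusted p-value ran from 0.0493 to 0.104. It was lost as well with the replicate number as a block (adjusted p = 0.0629). In none of the 5 genes did the SB-3CT + IFNγ samples overlap with the IFNγ samples (49.0% of all genes). When a fold of more than 1.5 on this scale and a raw p-value under 0.05 were required instead, the 3 BTN3A genes passed, as did 6.51% of all genes.

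**Figure D3:**
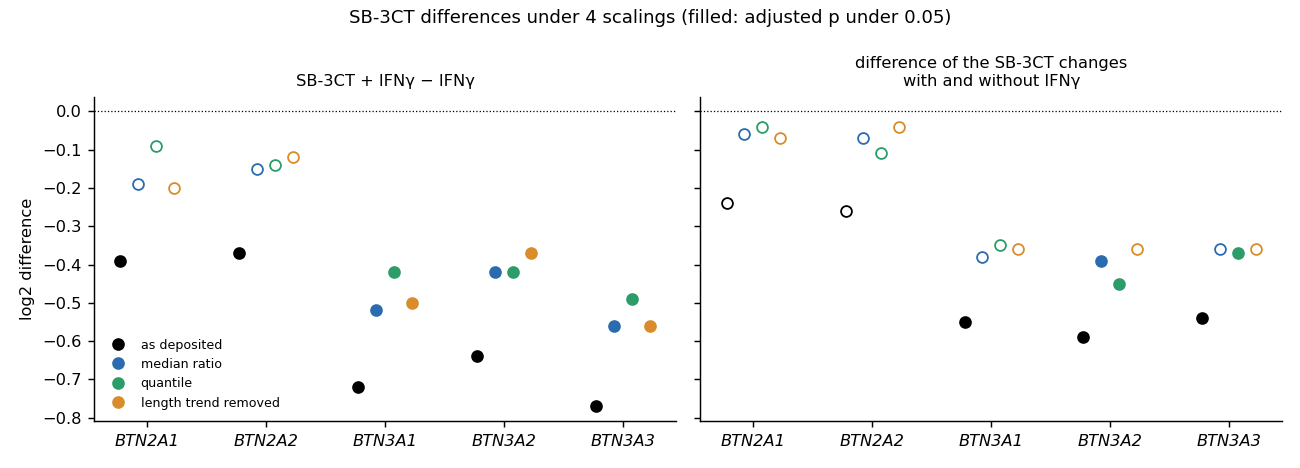
Log2 differences (y axis) of SB-3CT + IFNγ from IFNγ (left) and of the SB-3CT change with IFNγ minus that without (right) for each gene on the deposited scale and under 3 other scalings; filled points have an adjusted p-value under 0.05. On the left the BTN3A genes stay filled under each scaling, and BTN2A1 and BTN2A2 are filled on the deposited scale alone.

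The SB-3CT change differed between cells with and without IFNγ in the BTN3A genes. The interaction term, fitted over all 12 samples, was -0.59 for BTN3A2 (95% interval -0.86 to -0.32, adjusted p = 0.00914 from limma), -0.54 for BTN3A3 (-0.84 to -0.25, adjusted p = 0.0169) and -0.55 for BTN3A1 (-0.94 to -0.16, adjusted p = 0.0444). It was -0.26 for BTN2A2 (95% interval -0.55 to 0.04) and -0.24 for BTN2A1 (-0.56 to 0.09), neither of which was called. Over all genes 17.6% had a lower and 4.74% a higher SB-3CT change with IFNγ, against 5.59% and 7.77% after median-ratio scaling. After median-ratio scaling BTN3A2 was the only member still called (-0.39, adjusted p = 0.028), with -0.36 for BTN3A3 (adjusted p = 0.0584) and -0.38 for BTN3A1 (adjusted p = 0.145). Once the transcript-length trend was removed within samples, none of the 5 was called (-0.36 and adjusted p = 0.0571 for BTN3A2). The call of BTN3A1 was lost in 10 of the 12 fits without 1 sample, with adjusted p-values up to 0.105, and with the replicate number as a block (adjusted p = 0.0552).
In FPKM, the difference of the means in BTN3A3 with IFNγ was 8.70 without SB-3CT and 4.31 with it, or 49.6% as much. This share was 49.3% for BTN3A2, 46.1% for BTN3A1, 62.7% for BTN2A2 and 15.2% for BTN2A1, whose difference with IFNγ was not called. Among other IFNγ-responsive genes it was 66.7% for CD274 (the gene of PD-L1), 64.1% for CIITA, 73.1% for CD74, 116% for B2M and 137% for CXCL10. These shares were computed from the deposited values, and the genes were picked by hand. Another IFNγ-responsive gene, ERAP1, had a mean of 10.7 FPKM in control and 34.1 with IFNγ. With SB-3CT its mean was 10.9 FPKM, and with both agents 22.0, so a cut of this size was not limited to the BTN3A genes.

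The make-up of the family does not depend on a single scaling factor per sample, such as the median ratio, since it is a ratio within a sample. Quantile normalization and removal of the length trend can shift it, and it was computed from the deposited values. The 3 BTN3A genes made up 35.5%, 41.9% and 41.9% of the summed FPKM of the 5 genes in control samples and 41.3%, 41.4% and 35.4% with SB-3CT. They made up 61.6%, 59.8% and 64.7% with IFNγ. With SB-3CT and IFNγ the share was 57.4%, 54.6% and 56.2%, below all IFNγ samples and above all samples without IFNγ. The mean difference between the IFNγ groups was -5.98 percentage points (p = 0.1 in the exact permutation test, two-sided).
The shares of both BTN2A genes went the other way. That of BTN2A1 went from 32.0% ± 1.40 of the sum in control samples (SD, n = 3) to 14.7% ± 1.34 with IFNγ (SD, n = 3). That of BTN2A2 went from 28.3% ± 3.51 to 23.2% ± 1.49 (SD, n = 3), without overlap. In SB-3CT-treated cells the BTN2A2 shares without and with IFNγ overlapped (means 28.9% and 27.2%). A lower share is not a lower level: mean FPKM with IFNγ was 1.27 (BTN2A1) and 2.26 (BTN2A2) times the control mean. Within the BTN3A genes, BTN3A3 went from 26.2% ± 2.47 to 33.2% ± 0.569 of their sum and BTN3A2 from 51.3% ± 1.53 to 45.0% ± 0.299 (SD, n = 3), without overlap, whereas BTN3A1 (22.5% ± 1.98 and 21.8% ± 0.474, SD, n = 3) overlapped. The ratio of BTN2A2 to BTN2A1 was 0.885 ± 0.116 in control samples and 1.58 ± 0.125 with IFNγ (SD, n = 3). In SB-3CT-treated cells it was 0.914 ± 0.133 without IFNγ and 1.63 ± 0.129 with it (SD, n = 3). The IFNγ groups lay above the groups without IFNγ in every sample, and samples with and without SB-3CT overlapped in both states.

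**Figure D4:**
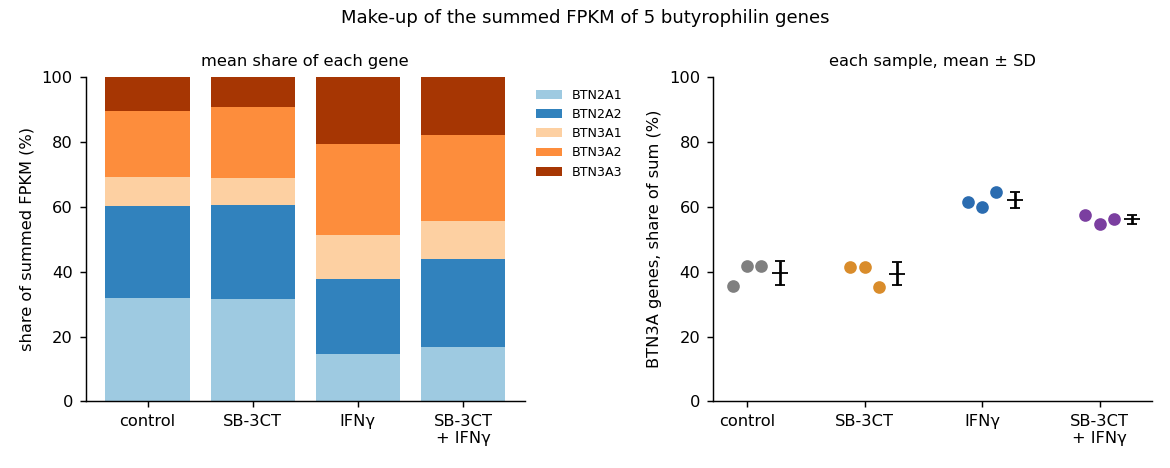
Left, the mean share of each gene in the summed FPKM of the 5 genes (stacked bars, percent) by group; right, the share of the 3 BTN3A genes in each sample, with mean and SD of 3 samples. The BTN3A share is near 40% without IFNγ (group means 39.7% and 39.4%), 62.0% with IFNγ and 56.1% with both agents.

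Other butyrophilin and B7-related genes were listed by hand. Of 13, 8 were in the table, and with IFNγ 1 was called higher and 1 lower (8.46% and 11.0% of all genes). Their median log2 difference was 0, against -0.02 over all genes and 1.57 over the 5 members. The one called higher was CD274, from 0.543 to 21.7 FPKM in the mean (log2 difference 3.88, adjusted p = 3.87e-06 from limma), and the one called lower was CD276, which encodes B7-H3, from 54.5 to 44.5 FPKM in the mean (-0.29, adjusted p = 0.00336). BTN1A1, a milk fat globule protein, had at most 0.0303 FPKM in any sample. BTN2A3P, which lies inside the cluster, had 0.455, 0.395 and 0.296 FPKM in control samples and 0.425, 0.864 and 0.370 FPKM with IFNγ, an overlapping range (log2 difference 0.16, adjusted p = 0.442). ERMAP, a red cell butyrophilin-like protein, had group means between 0.623 and 0.868 FPKM and was called in no comparison. BTNL8 and BTNL9, butyrophilin-like relatives, had group means of at most 0.179 and 0.0786 FPKM. With SB-3CT added to IFNγ, BTNL8 was called higher (log2 difference 0.15, adjusted p = 0.00546), at levels of 0.048 to 0.185 FPKM. CD274 was called lower on the deposited scale (-0.53, adjusted p = 0.00542), after median-ratio scaling (-0.30, adjusted p = 0.0301) and after quantile normalization (-0.33, adjusted p = 0.0289). It was not called once the length trend was removed (-0.26, adjusted p = 0.0586).

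Neighbours were sought among the genes of the table, A1BG to FAM46B, so those with later symbols were not covered. The 7 other genes that start within 2 Mb of the cluster, BTN1A1 and BTN2A3P included, had a median log2 difference of 0.01 with IFNγ. Of them 1 was called higher and 1 lower (8.46% and 11.0% of all genes). These were C6orf62 (0.47, adjusted p = 0.0109) and ACOT13, a mitochondrial thioesterase gene (-0.38, adjusted p = 0.00955). With SB-3CT added to IFNγ, C6orf62 was called lower (-0.68, adjusted p = 0.0028) and ACOT13 higher (0.51, adjusted p = 0.00342). ABT1, a nearby transcription cofactor gene, had -0.02 with IFNγ (adjusted p = 0.904) and 0.09 with SB-3CT added (adjusted p = 0.439).

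The hand-written list of IFNγ response genes gives a frame for these values. Of its 29 genes in the table, 27 were called higher with IFNγ and none lower (8.46% and 11.0% of all genes). The median log2 difference was 2.19. CIITA, the activator of MHC class II genes, went from 13.5 to 87.3 FPKM (log2 difference 2.60, adjusted p = 3.87e-06 from limma). With SB-3CT added to IFNγ, 20 of these 27 were called lower and 2 higher, against 31.5% and 6.41% of all genes. Their median was -0.45, in a range from -0.98 to 0.55. The 29 genes had a median of -0.44, and -0.23 after median-ratio scaling, when 15 were called lower and 4 higher. CIITA was called lower (-0.49, adjusted p = 0.00254), as was CD74 (-0.28, adjusted p = 0.0306). CXCL10 was called higher (0.44, adjusted p = 0.00874), and B2M had a difference of 0.12 (adjusted p = 0.377). The 5 butyrophilin genes had a median of -0.64 in this comparison, and all genes had -0.09. The lowest member, BTN3A3 at -0.77, lay within the range of the listed genes. After median-ratio scaling the members ran from -0.15 for BTN2A2 to -0.56 for BTN3A3. In the interaction term, 17 of the 29 listed genes were called lower and 3 higher, against 17.6% and 4.74% of all genes. Their median was -0.41, and the lowest value was -0.99, for DDX58. After median-ratio scaling 12 were called lower and 3 higher in this term, at a median of -0.27.

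Genes of sterol synthesis, which uses the same isoprenoid precursors as the phosphoantigens that BTN3A1 senses, were listed with genes linked to phosphoantigen release and with subunits of the F1-ATPase, a surface ligand described for the same T cells. All 9 were in the table. With IFNγ 6 were called lower and 0 higher (median log2 difference -0.28), with SB-3CT alone 5 lower and 0 higher (-0.18), and with SB-3CT added to IFNγ 6 lower and 0 higher (-0.23). Of all genes, 11.0%, 6.87% and 31.5% were called lower in these comparisons, in that order, at medians of -0.02, -0.01 and -0.09. After median-ratio scaling the count with SB-3CT added to IFNγ was 3 lower and 1 higher, at a median of -0.03. Of all genes 16.5% were then lower and 15.5% higher. ACAT2, DHCR7 and CYP51A1 were called lower in all 4 comparisons of groups on the deposited scale. ACAT2, which makes acetoacetyl-CoA at the entry to the mevalonate pathway, went from 36.9 FPKM in control to 30.0 with SB-3CT, 30.3 with IFNγ and 25.7 with both. DHCR7, at the end of cholesterol synthesis, differed by -0.94 with IFNγ (adjusted p = 0.000135 from limma) and by -0.91 with SB-3CT alone (adjusted p = 0.000508). ABCA1, a lipid exporter that has been linked to phosphoantigen release, had 1.39 FPKM in control, 0.707 with SB-3CT and 0.762 with IFNγ, and was called lower in both comparisons with control.

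Genes with a like pattern were sought by the root mean square difference between 3 changes of the group mean from control (log2 scale), over 3172 genes with a mean of at least 1 FPKM. The table held genes from A1BG to FAM46B, so genes with later symbols could not be found. ATP10A, a phospholipid flippase gene, was among the 5 nearest to each of the 3 BTN3A genes, at 0.09 from BTN3A1, 0.07 from BTN3A2 and 0.27 from BTN3A3. So was ERAP1, a peptide-trimming aminopeptidase of the MHC class I route (0.13, 0.08 and 0.30). The cathepsin gene CTSO was nearest to BTN3A1 (0.05) and the helicase gene DDX60 to BTN3A3 (0.16), and BTN3A3 had no gene within 0.1. CYP4V2 (0.03) and DDX60L (0.05) were nearest to BTN2A2. BTN2A1 had 51 genes within 0.1, with CXorf38 (0.03) first.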

How the data were processed

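RNA-seq of 12 A375 samples was analysed. Per the labels and methods, the authors aligned 150-base paired-end reads to hg19 with HISAT2 2.0.5 and calculated FPKM with StringTie 1.3.3 (versions from the submitters' processing notes). The deposited values are log2(FPKM + 1), as shown by their range of 0 to 12.16, and 2 to the power of the value minus 1 gave FPKM. The planned log transform was therefore not repeated. Each column matched 1 sample's title, and 0 columns were unused. The 4918 genes used here run from A1BG to FAM46B.

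Differences were tested with limma 3.58.1 in R 4.3.3 (eBayes with a variance trend, unpaired, only the 3 + 3 samples of a comparison; all 12 for the interaction), and the functions were tested on simulated data. Members, lists and motifs were chosen with earlier results of these data known. Named were the 5 members, other butyrophilin and B7-related genes, genes of phosphoantigen supply, 4 genes of the IFNγ list (CIITA, CD74, B2M, CXCL10), neighbours within 2 Mb and the genes of most like pattern. Other butyrophilin-like genes outside the table were not analysed here. Gene positions and transcript lengths came from GENCODE release 44 on GRCh37 (hg19), where 4458 symbols matched directly and 417 through a synonym in RefSeq. Alternatives were median-ratio scaling, quantile normalization, the replicate number as a block, a joint fit of all 4 groups, eBayes without trend, a filter at a mean of 1 FPKM, 0.1 in place of 1 as pseudocount, and leaving out each sample. A fit with the transcript-length trend removed within samples was chosen after seeing the data.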

Additional observations from a re-analysis of the deposited data

Results flagged for a closer look

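The SB-3CT change differed between cells with and without IFNγ in the 3 BTN3A genes, by the interaction term in limma over all 12 samples. The difference was -0.55 on the log2(FPKM + 1) scale for BTN3A1, -0.59 for BTN3A2 and -0.54 for BTN3A3. It was not particular to them. Of the 29 listed IFNγ response genes, 17 were called lower and 3 higher in this term, at a median of -0.41. In BTN3A2 it was called under median-ratio scaling and quantile normalization, and in BTN3A3 under quantile normalization, whereas with the length trend removed none of the 3 was called. Without IFNγ these genes lay between 1.17 and 4.05 FPKM, where this scale compresses a fall, and with a pseudocount of 0.1 the differences were -0.58 (adjusted p = 0.107), -0.62 (adjusted p = 0.00969) and -0.52 (adjusted p = 0.0471) in limma. The groups of 3 samples are too small for a test of single outlying samples.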

How the results depend on the processing

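Among values for single members under the alternatives, 340 kept their direction and side of the threshold, 30 lost the call and 3 gained it, and no called difference reversed. In 2 others, neither of them called, the sign changed: BTN2A1 for SB-3CT with IFNγ against SB-3CT (-0.02 without SB-3CT replicate 2) and BTN3A2 for SB-3CT against control (0.04 with quantile normalization). The rises of 4 members with IFNγ, in both states, and the falls of the 3 BTN3A genes with SB-3CT added to IFNγ were called under every alternative run. For SB-3CT with IFNγ against IFNγ, the 5 members called lower became 3 under median-ratio scaling, under quantile normalization and with the length trend removed, and ranged from 4 to 5 with a sample left out. For the interaction, the 3 members called lower became 1 under median-ratio scaling and 0 with the length trend removed, and ranged from 2 to 3 with a sample left out. The median log2 difference of genes with a mean of at least 1 FPKM was -0.20 for SB-3CT with IFNγ against IFNγ on the deposited scale and 0 after median-ratio scaling. The cause was not tested.

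Over all genes, SB-3CT with IFNγ against IFNγ had 315 higher and 1547 lower, against 763 and 811 with median-ratio scaling, 542 and 714 with quantile normalization and 592 lower with the length trend removed. SB-3CT with IFNγ against SB-3CT had 386 higher and 1608 lower, against 657 and 547 with median-ratio scaling, and 834 and 904 lower with quantile normalization and the length trend removed. The interaction had 233 higher and 866 lower, against 382 and 275 with median-ratio scaling, and 345 and 243 lower with quantile normalization and the length trend removed. SB-3CT against control had 264 higher and 338 lower, and 535 lower among genes with a mean of at least 1 FPKM. With a sample left out, higher and lower genes ranged from 271 (without IFNγ replicate 3) to 488 and 286 (without control replicate 3) to 531 for IFNγ against control, 41 (without control replicate 2) to 302 and 30 (without control replicate 3) to 610 for SB-3CT against control (302 and 610 without SB-3CT replicate 1), 196 (without IFNγ replicate 3) to 331 and 1034 to 1646 for SB-3CT with IFNγ against IFNγ, and 161 to 272 and 517 (without control replicate 2) to 1178 for the interaction.

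Deviations from the group means correlated between -0.39 and 0.17 in samples of the same replicate number. Samples of different numbers were not correlated for reference, so whether the numbers mark pairs cannot be told from these values. When the number was used as a block, 126 genes were higher and 133 lower for SB-3CT against control, and among members the calls of BTN2A1 (-0.39, adjusted p = 0.0629 in limma) for SB-3CT with IFNγ against IFNγ and of BTN3A1 (-0.55, adjusted p = 0.0552) in the interaction were lost. Without read totals, counting error cannot be given.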
